A study of Mus musculus with 6 samples.

Results

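Transcripts of the core splicing factor families were followed in the CD45-negative fraction of MC38 tumours labelled with or without a knockout of Npm1, the gene of nucleophosmin. The 56 genes were the protein-coding rows whose symbols belong to the Srsf, Hnrnp, Snrp and Lsm families, out of 54532 genes in the table, of which 22046 were protein-coding. They comprised 11 SR protein genes (Srsf), 20 hnRNP genes (Hnrnp), 12 small nuclear ribonucleoprotein genes (Snrp) and 13 Lsm genes. The rule reads gene names and no measured value, though these families were picked with earlier results of these data known. The tested samples were 3 libraries of MC38 tumours labelled Npm1 knockout by CRISPR/Cas9, and the samples they were set against were 3 libraries of MC38 tumours labelled wild type. MC38 is a mouse colon cancer line, and in both groups the tumours had grown under the skin of wild-type C57BL/6 mice and the CD45-negative fraction had been taken with microbeads before poly-A RNA was sequenced. The labels name neither the guide nor the number of clones behind the knockout, and give no age for the mice. Nothing in them ties a replicate to an animal of its own, and the p-values then cover only the spread among these libraries, part or all of which may be technical.

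Splicing removes introns from pre-mRNA on the spliceosome, which is built from small nuclear RNAs and their proteins. The Sm proteins close as a ring around U1, U2, U4 and U5 snRNA, and a ring of Lsm proteins binds the end of U6 snRNA. SR proteins bind exons and mostly promote their inclusion, while hnRNP proteins coat nascent transcripts and often repress nearby splice sites. Many SR and hnRNP genes carry exons or introns whose alternative splicing sends their own transcript to nonsense-mediated decay, so their levels are known to be self-limiting.

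The libraries held 16917778 to 18662688 fragments. Npm1 itself stood at 190.7, 159 and 128 FPKM (fragments scaled to gene length and library size) in the knockout libraries, against 234, 169 and 195 FPKM in the wild-type libraries. The groups overlapped (log2 difference -0.33, limma adjusted p = 0.268), so the level as deposited does not separate the labels. With the length and GC trend described further on subtracted, the difference was -0.73 (limma adjusted p = 0.0434). Of 10 leukocyte, 10 epithelial and 8 endothelial markers, every gene averaged under 1 FPKM; the epithelial sum was 0.613 to 1.40 FPKM in knockout and 1.003 to 1.28 FPKM in wild type, with Epcam and Cdx2 among the genes under 1 FPKM. All 10 fibroblast markers were expressed, with sums of 1536 to 1705 FPKM in knockout and 1138 to 1702 FPKM in wild type. At the threshold given below, 4 of them were higher and 1 lower in the knockout. Of all tested genes, 5.91% were higher and 8.3% lower. The sum of 7 pericyte and smooth muscle markers was 31.4 to 38.1 FPKM in knockout, against 51.1 to 67.0 FPKM in wild type. At the same threshold, 0 of the 4 tested among them were higher and 3 lower. Red blood cell genes summed to 12.8 to 81.2 FPKM in knockout and 1.46 to 22.5 FPKM in wild type. The part of these markers in the results on splicing factors was not tested, and in bulk RNA fewer cells of a type cannot be told apart from less RNA per cell.

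More splicing factor transcripts were higher than lower in the knockout. Values were compared as log2(FPKM + 1) with limma over 11287 genes that averaged 1 FPKM or more across the 6 libraries, and a gene was called at a Benjamini-Hochberg adjusted p under 0.05. Of the 56 members, 54 passed that level. Snrpn, the Sm gene used in neurons, had 0 fragments in every knockout library and 2 fragments in 1 wild-type library, and Srsf12 had at most 3 fragments in any library. Of the 54 tested, 16 rose and 1 fell, where 5.91% of all tested genes rose and 8.3% fell. The 3 knockout values lay above all 3 wild-type values for 22 members, against 16% of all tested genes, and below them for 4 members, against 19.6%. A positive difference was found for 45 of 54 members and for 5914 of all 11287 tested genes. The median log2 difference was 0.35 over the members and 0.02 over all tested genes. The 4 members whose knockout values all lay below wild type were Srsf4, Hnrnpa0, Hnrnpl and Lsm11.

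**Figure D1:**
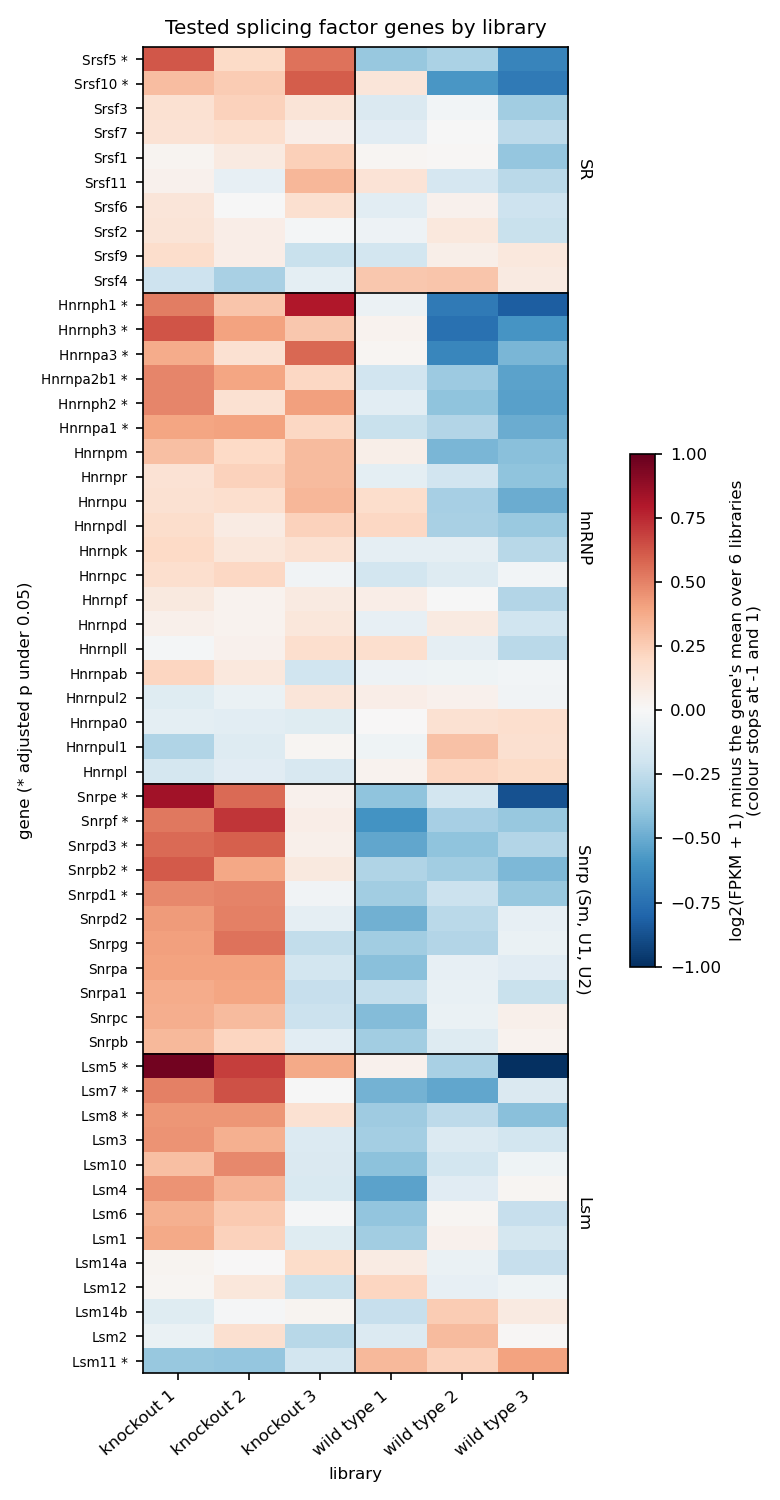
Heat map of the 54 tested genes, 1 row per gene and 1 column per library, with colour giving log2(FPKM + 1) minus the gene's mean over 6 libraries and stars marking an adjusted p under 0.05. The Snrp rows have their highest values in knockout 1 and 2 and lower ones in knockout 3, while Srsf10 and Hnrnph1 are highest in knockout 3. Wild type 1 has the highest wild-type value for 13 of 20 hnRNP genes.

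These counts leaned on single libraries, and so did the counts over all genes, of which 1604 of 11287 were called with every library in. Without knockout replicate 1, 0 members passed, although 20 had an unadjusted p under 0.05, and without wild-type replicate 3, 0 passed and 23 had one. Over all genes, 88 were called without knockout replicate 1 and 7 without wild-type replicate 3. Without knockout replicate 2, only Hnrnph1 and Srsf5 passed, among 209 genes called. Without wild-type replicate 2, 7 members rose, among 890 genes called, and without knockout replicate 3, 21 rose and 2 fell, among 2805 genes called. The median difference of the members stayed between 0.31 and 0.44 in all 6 of these fits. None of the 17 called members changed sign in any of the fits tried.

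As a share of all fragments, the 56 genes took 1.16, 1.17 and 1.14% in the knockout libraries, against 0.980, 0.926 and 0.822% in the wild-type libraries. The 3 knockout shares lay close together and above every wild-type share. The hnRNP genes held most of it, at 0.689, 0.694 and 0.708% in knockout and 0.619, 0.555 and 0.498% in wild type. The SR genes held 0.227, 0.227 and 0.246% in knockout and 0.205, 0.200 and 0.158% in wild type. The Snrp genes held 0.159, 0.162 and 0.116% in knockout and 0.0930, 0.103 and 0.103% in wild type, so that knockout replicate 3 stood nearer to wild type than to the other knockout libraries. The Lsm genes held 0.0828, 0.0855 and 0.0723% in knockout and 0.0639, 0.0687 and 0.0634% in wild type. No group's knockout share overlapped its wild-type share in these 4 families.

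The promoter of the member with the smallest p in each of the 4 families is shown as an example of that family. All 4 of these members rose, while Lsm11 of the Lsm family fell. RefSeq gave a window of 250 bases before to 50 bases after the first listed start for 49 of the 56 members, on GRCm38.p6, with each sequence written 5′ to 3′ on the gene's strand. Capitals mark exact matches, on either strand, to any of 7 motifs. These were the TATA core TATAA, the CCAAT box CCAAT, the GC box GGGCGG, the ETS core CCGGAA, the E-box CACGTG, the YY1 core AAGATGG and the NRF1 core GCGCATG. The windows lie at chr12:80945249-80945548 on the plus strand for Srsf5, chr11:50376740-50377039 on the plus strand for Hnrnph1, chr10:93589609-93589908 on the minus strand for Snrpf and chr6:18848385-18848684 on the plus strand for Lsm8.
Srsf5: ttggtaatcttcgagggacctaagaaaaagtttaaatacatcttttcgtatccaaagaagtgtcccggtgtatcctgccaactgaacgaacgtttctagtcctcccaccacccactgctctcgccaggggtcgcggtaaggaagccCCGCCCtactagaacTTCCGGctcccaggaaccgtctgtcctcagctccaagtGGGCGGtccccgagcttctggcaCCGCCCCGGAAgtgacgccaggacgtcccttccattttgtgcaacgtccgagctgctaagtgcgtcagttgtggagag
Hnrnph1: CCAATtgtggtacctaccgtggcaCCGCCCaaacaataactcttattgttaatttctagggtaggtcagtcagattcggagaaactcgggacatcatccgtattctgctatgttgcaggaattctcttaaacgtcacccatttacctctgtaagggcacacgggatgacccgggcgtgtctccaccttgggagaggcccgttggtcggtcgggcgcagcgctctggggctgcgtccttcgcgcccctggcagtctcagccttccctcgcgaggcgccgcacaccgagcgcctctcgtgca
Snrpf: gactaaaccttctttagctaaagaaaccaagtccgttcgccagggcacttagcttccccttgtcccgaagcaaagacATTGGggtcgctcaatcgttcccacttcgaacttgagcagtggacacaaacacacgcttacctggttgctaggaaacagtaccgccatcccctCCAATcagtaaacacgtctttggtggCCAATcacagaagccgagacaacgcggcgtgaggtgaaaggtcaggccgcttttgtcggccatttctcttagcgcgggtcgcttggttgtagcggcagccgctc
Lsm8: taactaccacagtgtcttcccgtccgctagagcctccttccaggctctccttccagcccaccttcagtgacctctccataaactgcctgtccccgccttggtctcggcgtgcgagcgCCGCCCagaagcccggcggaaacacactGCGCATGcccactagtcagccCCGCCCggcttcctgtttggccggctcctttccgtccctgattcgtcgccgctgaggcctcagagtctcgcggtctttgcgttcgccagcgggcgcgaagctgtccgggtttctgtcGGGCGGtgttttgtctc
Srsf5 holds GC boxes and ETS cores, one of each overlapping near the start. Hnrnph1 holds a CCAAT box and a GC box at the upstream end of its window. Snrpf holds CCAAT boxes and no GC box, and Lsm8 holds GC boxes and an NRF1 core.

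Over all 49 windows, the GC box was found in 37 members (75.5%), against 46.3% of 17491 protein-coding promoters of the same length. The CCAAT box was found in 25 members (51.0%, against 39.0% of coding promoters) and the ETS core in 18 (36.7%, against 19.1%). The TATA core was found in 10 members (20.4%, against 22.8%), and in 0 of the 10 Lsm windows. The E-box was found in 5 members (10.2%, against 7.90%), the NRF1 core in 5 (10.2%, against 4.88%) and the YY1 core in 2 (4.08%, against 6.37%). Of the 15 members with a window that rose, 12 held a GC box, 9 a CCAAT box and 6 an ETS core. These shares are not far from the 75.5, 51.0 and 36.7% over all 49 windows. The 17491 coding promoters include genes not expressed here, and promoters of expressed genes were not set apart. A match is a run of letters and not a site of binding, and no link between motifs and the differences was tested.

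Among the SR proteins, Srsf5 and Srsf10 rose and the rest did not pass. Srsf5, an SR protein that binds exonic enhancers, is at chromosome 12, 80945504 to 80950507 (GRCm38, plus strand). It stood at 65.9, 48.6 and 62.3 FPKM in knockout, against 32.5, 34.0 and 26.5 FPKM in wild type. Every knockout library lay above every wild-type library, with a log2 difference of 0.90 (SE 0.169, n = 3 each, limma adjusted p = 0.0163), the smallest p among the members. Srsf10, an SR protein known to repress splicing when it loses its phosphates, stood at 23.8, 22.9 and 29.5 FPKM in knockout, against 20.8, 12.4 and 11.3 FPKM in wild type. Wild-type replicate 1 came close to the knockout range, and the difference was 0.78 (SE 0.218, limma adjusted p = 0.0419). Srsf4, an SR protein with a long arginine and serine tail, stood at 9.60, 8.76 and 10.4 FPKM in knockout, against 13.7, 13.9 and 12.03 FPKM in wild type. Its groups did not overlap, and its difference of -0.42 (SE 0.140) did not pass (limma adjusted p = 0.0680).

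The most abundant SR transcripts did not pass. Srsf2, which binds exonic enhancers of many genes, averaged 105 ± 5.25 FPKM in knockout and 97.2 ± 11.1 FPKM in wild type (SD, n = 3 each), a difference of 0.11 with a 95% interval of -0.22 to 0.45. Srsf7, which also has a part in mRNA export, averaged 92.5 ± 3.55 FPKM in knockout and 77.5 ± 6.86 FPKM in wild type (0.25, interval -0.07 to 0.58). Srsf6 averaged 60.3 ± 3.64 FPKM in knockout and 53.0 ± 4.82 FPKM in wild type (0.18, interval -0.13 to 0.50). Srsf1, the founding member of the family, differed by 0.24, Srsf3 by 0.34, Srsf11 by 0.20 and Srsf9 by 0.02. The knockout values of Srsf7, Srsf1 and Srsf3 nonetheless all lay above their wild-type values. The median difference of the 10 tested SR genes was 0.22, with 2 called higher and 0 called lower.

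The hnRNP genes gave 6 of the 16 rises, and all 6 were A/B or H proteins. Hnrnpa1, a repressor of exons that shuttles out of the nucleus with mRNA, stood at 220.4, 222 and 194 FPKM in knockout, against 144, 137 and 119 FPKM in wild type. The groups did not overlap, with a difference of 0.67 (SE 0.158, limma adjusted p = 0.0263). The call of Hnrnpa1 held in 8 of 24 alternative fits. Other called members ranged from 7 of 24 for Srsf10 to 14 of 24 for Srsf5 and Snrpd3. Hnrnpa2b1, which also has a part in RNA transport, stood at 154, 144 and 126 FPKM in knockout, against 95.4, 84.9 and 75.1 FPKM in wild type. Its difference was 0.73 (SE 0.160, limma adjusted p = 0.0225) with no overlap. Hnrnpa3, a close relative, was low, at 5.13, 4.27 and 6.08 FPKM in knockout and 3.82, 2.02 and 2.45 FPKM in wild type (0.73, SE 0.200, limma adjusted p = 0.0402). The other A/B members did not pass. Hnrnpab averaged 216 ± 30.9 FPKM in knockout and 202 ± 1.55 FPKM in wild type, with a difference of 0.08 that turned to -0.03 after rescaling to TPM and -0.15 after quantile normalization. Hnrnpa0, a gene with a single annotated transcript, averaged 184 ± 1.497 FPKM in knockout and 214 ± 13.3 FPKM in wild type, with no overlap and a difference of -0.21 (limma adjusted p = 0.339).

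The H proteins bind runs of guanines in pre-mRNA. Hnrnph1, at chromosome 11, 50376990 to 50386528 (plus strand), stood at 81.2, 69.0 and 99.5 FPKM in knockout, against 54.5, 34.2 and 31.6 FPKM in wild type. All knockout libraries were higher, wild-type replicate 1 was the nearest to them, and the difference of 1.06 (SE 0.222, limma adjusted p = 0.0198) was the largest of the hnRNP genes. Hnrnph2, its relative on the X chromosome, stood at 18.4, 14.4 and 17.5 FPKM in knockout, against 11.9, 9.53 and 8.55 FPKM in wild type (0.70, SE 0.164, limma adjusted p = 0.0261). Hnrnph3 stood at 7.96, 6.68 and 5.97 FPKM in knockout, against 4.95, 2.45 and 2.85 FPKM in wild type (0.87, SE 0.212, limma adjusted p = 0.0297). Neither pair of groups overlapped. Hnrnpf, the fourth gene of the F/H subfamily, differed by 0.15 (interval -0.19 to 0.49), with 92.8, 88.7 and 92.3 FPKM in knockout and 90.6, 86.5 and 70.6 FPKM in wild type.

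The 11 remaining hnRNP genes gave 0 calls, with a median difference of 0.23. Nearest to the threshold were Hnrnpm at 0.54 (limma adjusted p = 0.0567) and Hnrnpr at 0.46 (limma adjusted p = 0.0625), and neither had overlapping groups. Hnrnpk, a poly-C binding protein of high level, averaged 115 ± 3.46 FPKM in knockout and 92.8 ± 6.82 FPKM in wild type without overlap, at a difference of 0.30 (limma adjusted p = 0.169). Hnrnpu, a nuclear scaffold protein, differed by 0.43, Hnrnpdl by 0.32, and Hnrnpc, which binds uridine tracts, by 0.23. Hnrnpd, also called AUF1, and Hnrnpll each differed by 0.13. Hnrnpl, a binder of CA repeats, stood at 51.9, 54.3 and 52.3 FPKM in knockout, below the 60.3, 68.2 and 67.2 FPKM of wild type (-0.30, limma adjusted p = 0.159). Hnrnpul1 differed by -0.27 and Hnrnpul2 by -0.05.

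Every tested Snrp gene had a positive difference, and 5 of 11 rose. Of all 11287 tested genes, 5914 had a positive difference and 5.91% rose. In the Sm ring, 4 of 7 subunits rose and the median difference was 0.63. Snrpf (SmF), at chromosome 10, 93583029 to 93589706 (minus strand), stood at 77.1, 87.9 and 55.8 FPKM in knockout, against 34.7, 42.2 and 40.8 FPKM in wild type. Its groups were well apart, with a difference of 0.87 (SE 0.186, limma adjusted p = 0.0208). Snrpe (SmE), which meets SmF and SmG in a subcomplex before the ring closes, stood at 95.5, 79.0 and 54.7 FPKM in knockout, against 39.8, 46.6 and 28.6 FPKM in wild type. Knockout replicate 3 came nearest to wild type, and the difference was 0.97 (SE 0.235, limma adjusted p = 0.0288). Snrpd3 (SmD3) stood at 46.1, 47.2 and 32.0 FPKM in knockout, against 21.3, 23.0 and 25.1 FPKM in wild type (0.81, SE 0.175, limma adjusted p = 0.0209). Snrpd1 (SmD1) stood at 139, 141 and 97.0 FPKM in knockout, against 78.1, 85.7 and 76.6 FPKM in wild type (0.63, SE 0.179, limma adjusted p = 0.0444). The groups of both genes stayed apart, with knockout replicate 3 again the lowest knockout library.

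For the 3 other ring subunits, knockout replicate 3 lay inside the wild-type range. Snrpd2 (SmD2) stood at 70.6, 74.7 and 49.0 FPKM in knockout, against 37.2, 43.1 and 49.3 FPKM in wild type (0.56, limma adjusted p = 0.0744). Snrpg (SmG) stood at 66.3, 72.7 and 41.9 FPKM in knockout, against 39.0, 40.4 and 47.6 FPKM in wild type (0.47, limma adjusted p = 0.147). Snrpb, which encodes the SmB proteins and had the highest level of the ring, stood at 226, 209 and 167 FPKM in knockout, against 141, 164 and 184 FPKM in wild type (0.29, limma adjusted p = 0.278). Of the proteins particular to U2 snRNP, Snrpb2 rose, at 30.6, 26.1 and 21.2 FPKM in knockout and 15.8, 15.3 and 14.2 FPKM in wild type (0.73, SE 0.161, limma adjusted p = 0.0221). Its partner Snrpa1 differed by 0.36 (limma adjusted p = 0.206), and the U1 proteins Snrpa and Snrpc differed by 0.41 and 0.31 without passing.

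**Figure D2:**
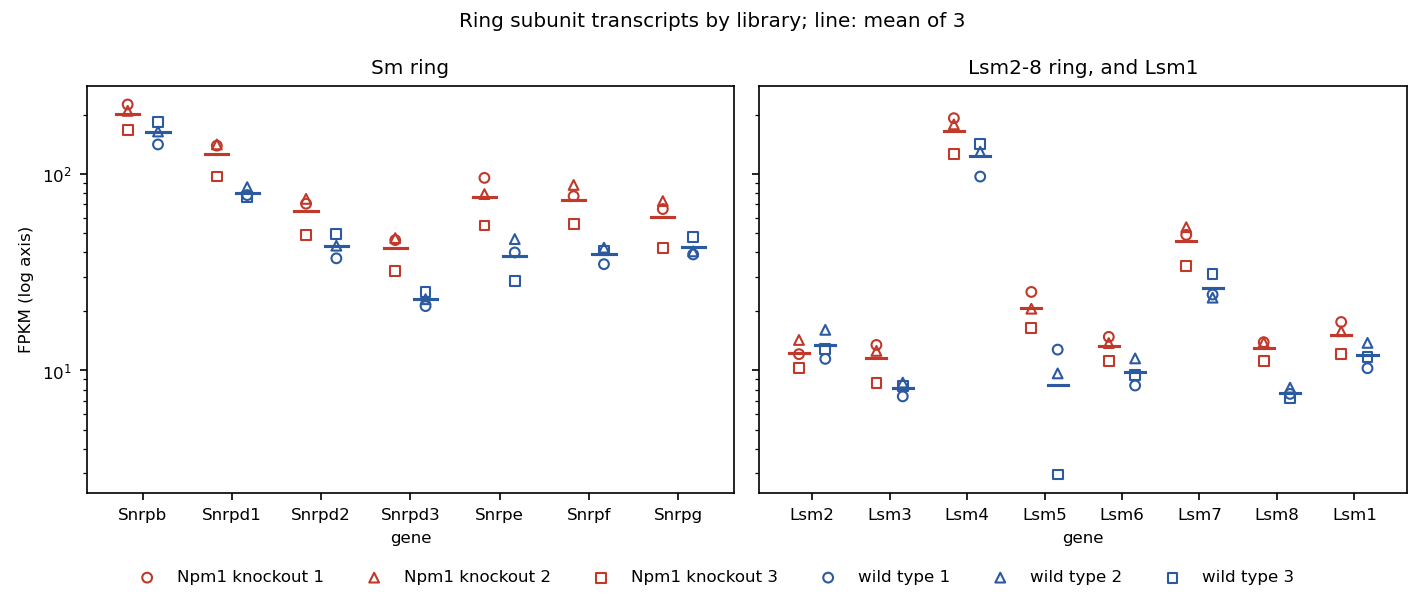
FPKM of the Sm ring subunits (left) and of the Lsm2-8 ring subunits with Lsm1 (right) on a log axis, 1 symbol per library, knockout in red left of wild type in blue, with a line at the mean of 3. Knockout 3 (red square) is the lowest red symbol of all 7 Sm genes and all 7 Lsm2-8 genes, and wild type 3 at 2.95 FPKM of Lsm5 is far below the other symbols of that gene.

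Knockout replicate 3 held a different place among the Snrp and Lsm2-8 genes than among most regulators. It was the lowest knockout library for 11 of 11 Snrp genes and for 7 of 7 genes of the Lsm2-8 ring, but for 6 of 20 hnRNP genes and 4 of 10 SR genes, where 39.9% of all tested genes had it lowest. It lay inside the wild-type range for 15 of the 54 tested members, 6 of them Snrp and 6 Lsm genes, and for 5024 of all 11287 tested genes. Knockout replicates 1 and 2 both lay above all wild-type values for 35 of 54 members, including all 11 Snrp genes, and for 3308 of all 11287 tested genes. The hnRNP A/B genes went with the Snrp genes in part, with knockout replicate 3 the lowest knockout library for 4 of 5. Median transcript length was 1690 bases for Snrp and 1586 for Lsm2-8 genes, against 3294 for SR and 3714 for hnRNP genes. The part of length in this pattern was not tested, and no test of the difference between families was made.

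In the Lsm family the U6 ring rose in part, and Lsm11 fell. Lsm8, the subunit that marks the nuclear ring bound to U6, at chromosome 6, 18848579 to 18855751 (plus strand), stood at 13.9, 13.9 and 11.2 FPKM in knockout, against 7.60, 8.18 and 7.23 FPKM in wild type. The wild-type values lay close together and below all knockout values (0.69, SE 0.145, limma adjusted p = 0.0201). Lsm7 stood at 49.0, 53.6 and 34.1 FPKM in knockout, against 24.3, 23.5 and 30.8 FPKM in wild type (0.76, SE 0.193, limma adjusted p = 0.0333), with knockout replicate 3 and wild-type replicate 3 the nearest pair. Lsm5 stood at 25.1, 20.6 and 16.4 FPKM in knockout, against 12.8, 9.66 and 2.95 FPKM in wild type. The groups did not overlap, but the wild-type libraries spread widely and replicate 3 was far below the others. Its difference of 1.36 (SE 0.384, limma adjusted p = 0.0431) was the largest of the members with all libraries in. Without wild-type replicate 3 it was 0.82 (limma adjusted p = 0.0851), below the 0.91 of Hnrnph1 and the 0.90 of Snrpf in the same fit.

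The other ring genes did not pass. Lsm3 differed by 0.44 and Lsm6 by 0.40. Lsm4, the most abundant Lsm transcript, stood at 192, 179 and 127 FPKM in knockout, against 97.0, 129.8 and 142 FPKM in wild type, and its groups overlapped (0.42, limma adjusted p = 0.190). Lsm2 differed by -0.13. Lsm1, which takes the place of Lsm8 in the cytoplasmic ring that promotes decapping of mRNA, differed by 0.32 (interval -0.07 to 0.71). Lsm10 and Lsm11 belong to the U7 particle that cuts histone pre-mRNA, where they stand in for SmD1 and SmD2. Lsm11 stood at 2.02, 2.01 and 2.47 FPKM in knockout, against 3.92, 3.61 and 4.20 FPKM in wild type, and fell by 0.63 on the log2 scale (SE 0.147, limma adjusted p = 0.0254) without overlap. Lsm10 stood at 28.0, 32.0 and 20.3 FPKM in knockout, against 16.8, 19.8 and 21.9 FPKM in wild type (0.42, limma adjusted p = 0.143). Of the Lsm proteins outside the rings, Lsm12 differed by -0.06, Lsm14b by -0.07 and Lsm14a, a protein of cytoplasmic RNA granules, by 0.14.

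Some of these genes share sequence with processed pseudogenes, and the counting rule for fragments that match several genes is not given in the sources used here. Copies close to identity, at no less than 95% identity over 50% or more of the coding sequence, were sought, and matches were found for 23 members. The match of Srsf4, Gm12992, lies on the opposite strand over exons of Srsf4 itself, so it is an overlap and not a copy. For Lsm5, the highest copy is Gm7846 at chromosome 1, 28580499 to 28580772 (GRCm38, minus strand), while Lsm5 is at chromosome 6, 56701063 to 56704710 (minus strand). Both are printed below over bases 29 to 273 of the Lsm5 coding sequence to show how little separates them. Over these 245 bases they are 99.6% identical, and the capital marks the single difference, G225A, with Lsm5 first and positions counted from the start of the stretch.
Lsm5: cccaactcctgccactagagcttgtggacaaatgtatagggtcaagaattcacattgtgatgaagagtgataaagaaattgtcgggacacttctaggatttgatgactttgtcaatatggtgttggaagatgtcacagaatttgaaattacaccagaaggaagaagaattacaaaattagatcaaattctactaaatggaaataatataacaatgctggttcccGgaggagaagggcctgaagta
Gm7846: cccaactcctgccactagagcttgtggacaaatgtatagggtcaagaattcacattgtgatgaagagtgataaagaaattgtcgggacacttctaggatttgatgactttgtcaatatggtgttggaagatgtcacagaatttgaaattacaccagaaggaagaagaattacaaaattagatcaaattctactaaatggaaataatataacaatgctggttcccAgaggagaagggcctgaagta
The 2 copies of Lsm5 held 33.6, 43.2 and 28.7% of the joint fragments in knockout, against 34.0, 44.8 and 84.4% in wild type, so wild-type replicate 3 was the exception. With the copies added, Lsm5 stood at 37.8, 36.3 and 23.0 on the FPKM scale in knockout, against 19.4, 17.5 and 19.0 in wild type. The wild-type libraries then lay close together, and the difference was 0.74 (limma adjusted p = 0.0350) in place of 1.36.

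Snrpe showed the same library apart from the others. Its 1 copy, the pseudogene Snrpert, held 7.53, 13.1 and 9.69% of the joint fragments in knockout, against 10.7, 9.81 and 23.1% in wild type. With the copy added, the difference was 0.90 (limma adjusted p = 0.0273). For Hnrnpa3, 24 copies held 83.3, 82.7 and 77.1% of the joint fragments in knockout, against 77.9, 82.5 and 80.7% in wild type, with Gm6793 the highest copy, so its own level is uncertain. The sum differed by 0.95 (limma adjusted p = 0.0158). For Lsm7, 2 copies held 10.9 to 13.8% in knockout and 9.87 to 14.4% in wild type, and the difference stayed at 0.76. With these matches added to every member that has them, Gm12992 to Srsf4 included, 16 members rose and 1 fell. This step was chosen after seeing the data. The strand setting of the counting is not known either, so fragments of antisense partners cannot be told apart. Exons of Ccdc38 on the opposite strand cover 65.9% of the exon bases of Snrpf, and Ccdc38 averaged 0.103 FPKM. Gm12992 covers 43.0% of Srsf4 in the same way, at 0.258 FPKM, and Phykpl covers 29.1% of Hnrnpab, at 1.40 FPKM.

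**Figure D3:**
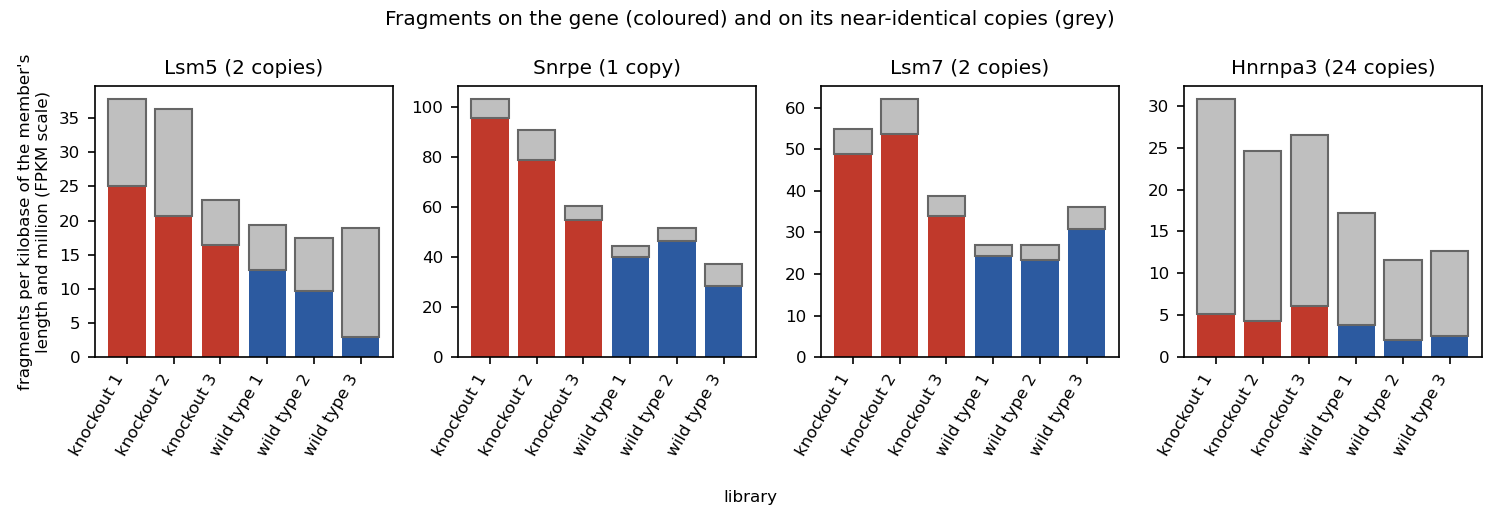
Stacked bars of fragments on each gene (red in knockout, blue in wild type) and on its near-identical copies (grey), per library, scaled by the member's length. For Lsm5 the grey part holds 84.4% of wild type 3, and for Hnrnpa3 it holds 77.1 to 83.3% of every library.

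Part of the difference went with transcript length and GC content. Across the 54 members, Spearman's rho of the log2 difference was -0.50 with GC content and -0.16 with transcript length, as a description over genes that share the same 6 libraries. Over all tested genes it was -0.34 with GC content and -0.46 with length. Members with shorter transcripts (669 to 2752 bases) gave 7 rises and a median of 0.36, and those with longer ones (2847 to 21452 bases) gave 9 rises, 1 fall and a median of 0.34. When a smooth surface over length and GC content was subtracted in each library, 4 members remained higher (Hnrnph1, Hnrnpa2b1, Hnrnpa3 and Snrpd3), where 1.27% of all tested genes were, and 0 remained lower, where 1.55% were. Without the trend the differences were 0.67 for Hnrnph1, 0.56 for Hnrnpa2b1, 0.52 for Hnrnpa3 and 0.74 for Snrpd3, with limma adjusted p from 0.0457 to 0.0498. The members' median was then 0.18, against 0.01 for all genes.

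The families differed in how much was left once the trend was subtracted. The median of the SR genes was -0.002, with Srsf5 at 0.56 (limma adjusted p = 0.0668) and Srsf10 at 0.52 (0.0909). The hnRNP median was 0.20, the Snrp median 0.29 and the Lsm median 0.18. All 11 Snrp differences were still positive, as were 5869 of the 11269 genes in this fit. Snrpf was at 0.43 (0.116), Snrpe at 0.53 (0.138), Snrpb2 at 0.29 (0.131) and Snrpd1 at 0.19 (0.307). Lsm11, which fell as deposited, was at -0.20 (0.261). When a library was left out as well, 0 to 2 members passed as higher. Hnrnpa2b1 and Snrpd3 passed without knockout replicate 3. Srsf5 passed without wild-type replicate 2, and a member outside the 17 calls passed when wild-type replicate 1 was dropped.

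**Figure D4:**
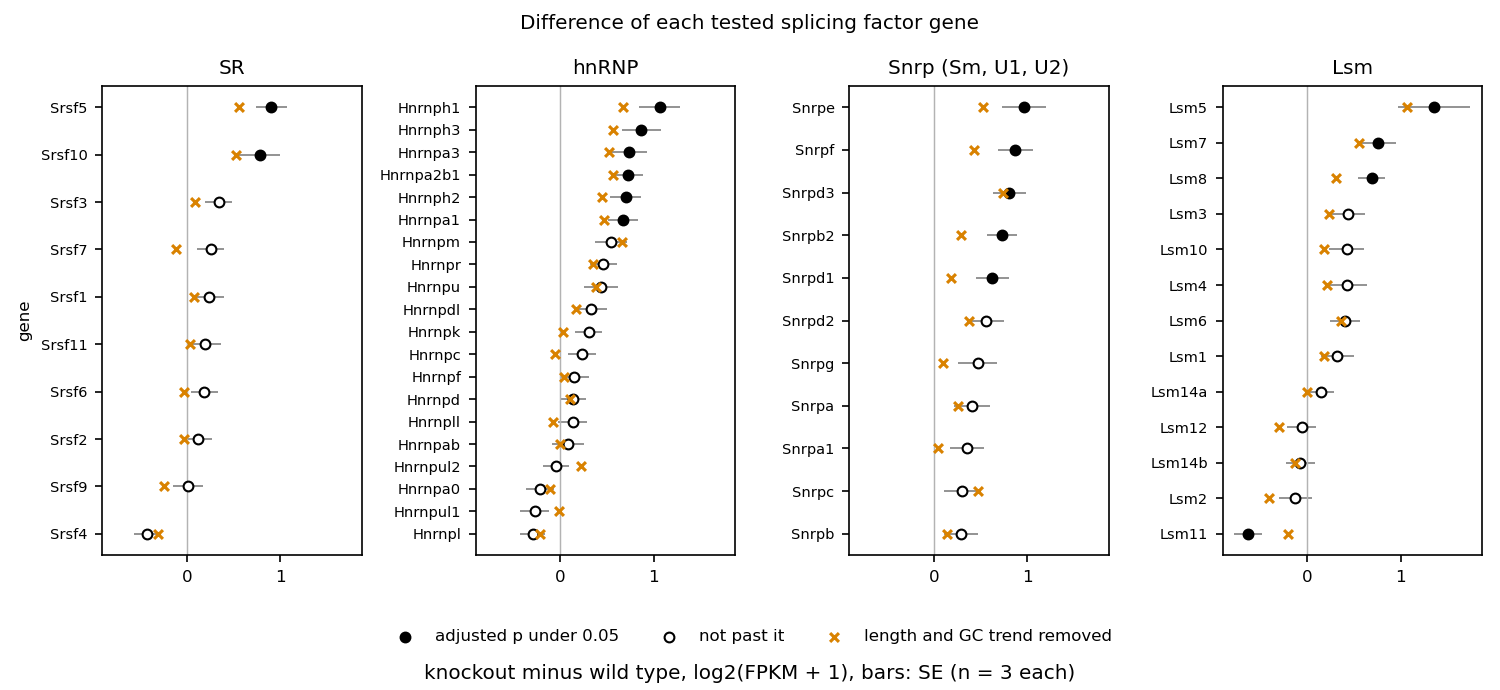
Log2 difference of each tested gene, knockout minus wild type, with bars for the standard error (n = 3 each), filled points for an adjusted p under 0.05 and orange crosses for the value after the length and GC trend was subtracted. Most crosses lie nearer to 0 than their points, while the cross of Snrpd3 is at 0.74 and that of Lsm5 at 1.07, which did not pass.

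Members with and without an annotated transcript subject to nonsense-mediated decay were both among the genes that rose. Of the 27 tested members with such a transcript in GENCODE vM21, 6 rose and 1 fell, with a median of 0.30, and of the 27 without one, 10 rose, with a median of 0.44. The values are per gene and do not show which transcript was made.

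Other proteins of the splicing pathway were called in both directions, at shares not far from those of all tested genes. Of 173 tested genes in 9 lists of spliceosome, regulatory, assembly and decay factors, 15 rose and 17 fell, where 5.91% of all tested genes rose and 8.3% fell. Single lists are small, and none was tested against those shares. With the length and GC trend subtracted, 5 of these 32 calls still passed, which were Sf3a1, Slu7, Clk1, Srrm1 and Upf3a. Of 23 U1 and U2 snRNP proteins, 1 rose and 3 fell. The SF3A subunits Sf3a1 (14.7, 16.0 and 20.3 FPKM in knockout, against 30.3, 34.3 and 32.4 FPKM in wild type) and Sf3a2 fell by 0.90 and 0.65 on the log2 scale (limma adjusted p = 0.0141 and 0.0255). Sf1, which recognises the branch point, fell by 0.64, and Htatsf1 rose by 0.64. With the trend subtracted, 0 of the 23 passed as higher and 3 as lower, where 1.27% and 1.55% of all tested genes did. Among these 3, Sf3a1 was at -0.63 (limma adjusted p = 0.0390), and the others had not been called as deposited.

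Of 20 tri-snRNP proteins, Snrnp27 (0.65) and the cyclophilin Ppih (1.17) rose and Prpf8, the protein at the catalytic core (-0.70), and Sart3, a U6 recycling factor (-0.47), fell. Of 9 minor spliceosome proteins, Rnpc3 rose (0.57). Of 24 Prp19 complex and catalytic step proteins, Cwc27 (0.82) and the second-step factor Slu7 (0.52) rose and the helicase Dhx8 fell (-0.69). With the trend subtracted, Slu7 was at 0.44 (limma adjusted p = 0.0480), while Prpf8, at -0.19 (limma adjusted p = 0.381), and the other genes named from these 3 lists did not pass.

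Of 20 SR-like proteins and SR kinases, 4 rose and 3 fell. Clk1, a kinase that phosphorylates SR proteins, stood at 16.9, 12.7 and 18.8 FPKM in knockout, against 11.6, 6.19 and 6.02 FPKM in wild type (0.97, limma adjusted p = 0.0300). Tra2a and Tra2b, which bind purine-rich enhancers, rose by 0.65 and 0.63, and Pnn, a nuclear speckle protein, by 0.96. Scaf1 (-0.88), Scaf4 (-0.70) and Srrm1 (-0.69) fell. Of 35 hnRNP-like regulators, Taf15 rose (0.87) and Khsrp (-0.67) and Rbfox2 (-0.60) fell. Once the trend was subtracted, 0 of these 35 passed as higher and 1, not called as deposited, as lower.

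Of 18 proteins that assemble the Sm ring, 1 was called in each direction. Gemin6, at 15.0, 16.7 and 11.7 FPKM in knockout and 8.89, 8.98 and 6.85 FPKM in wild type, rose by 0.74 (limma adjusted p = 0.0255). Gemin5, which binds snRNA in the SMN complex, fell by 0.65 on the log2 scale (limma adjusted p = 0.0249). With the trend subtracted neither passed, with Gemin6 at 0.36 (limma adjusted p = 0.138) and Gemin5 at -0.20 (limma adjusted p = 0.243). Of 16 exon junction and nonsense-mediated decay proteins, Rbm8a (0.83) and Magoh (0.75), which pair in the junction complex, and Upf3a (0.66) rose, and Upf1 (-0.83) and Casc3 (-0.58) were among those that fell. Of 8 decapping partners of the cytoplasmic Lsm ring, 0 rose, and Dcp1a (-0.62) and Patl1 (-0.63) fell. These 2 genes did not pass with the trend subtracted (limma adjusted p = 0.09475 and 0.07365).

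**Figure D5:**
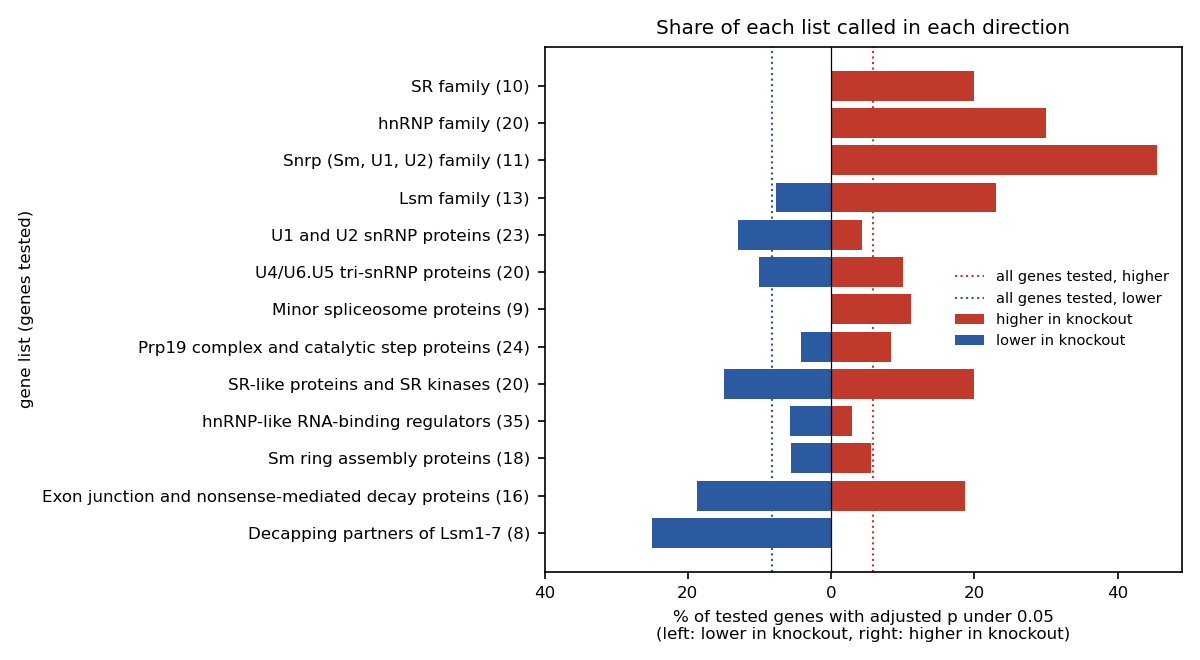
Share of tested genes called in each direction for the 4 families and 9 lists of related proteins, higher in knockout to the right in red and lower to the left in blue, with dotted lines at the shares of all tested genes (5.91% higher, 8.3% lower). The Snrp bar reaches 45.5% on the right with nothing on the left, and the decapping bar, of 2 falls among 8 genes, is on the left only.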

How the data were processed

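The deposited values are FPKM per gene and library; the submitters' processing notes name DESeq2 1.20.0, featureCounts 1.5.0-p3, HISAT2 2.0.5 and CASAVA 1.8 and the build GRCm38 (mm10), with no role for any. Strand setting and filters: not given in the sources used here. FPKM times gene length gave whole fragments for 100% of values within 0.001 of a fragment. The totals implied by these steps equal median-ratio size factors times the geometric mean of the recovered totals, so the deposited FPKM carry that scaling.

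From these values, log2(FPKM + 1) was fitted on group with limma 3.58.1 in R 4.3.3 (variance with a mean trend, two-sided, 11287 genes averaging 1 FPKM or more, Benjamini-Hochberg adjustment). Differences are knockout minus wild type and understate the change of low genes. Intervals are 95%. Copies were found with blastn 2.17.0, and the trend surface was fitted with mgcv 1.9.3 over 11269 genes. The fit was also run on simulated data that held no length and GC trend and no deviating library. That run therefore does not show how the calls behave where those are present. Alternatives were another pseudocount, other filters and scalings, limma-voom, a replicate block and left-out libraries. The members and lists were chosen with earlier results of these data known. Named by rule were called members, the 3 smallest p and 3 highest levels of each family, and up to 4 genes of each list; other members and list genes were named to account for counts. Not every list gene behind a count is reported here. GENCODE vM21 gave the same coordinates for 53 of 56 members.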

Additional observations from a re-analysis of the deposited data

How the results depend on the processing

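Of the 17 called members, all kept their direction under each alternative in which they were tested. The cause of the changes below was not tested unless stated. With no filter on low values 0 members rose or fell in limma, at adjusted p no lower than 0.0851, while 27 members and 4543 of 24310 genes had an unadjusted p under 0.05; more genes enter the adjustment there. Rescaling to TPM left 7 rises and a median of 0.24, with the median of all genes at -0.08 against 0.02 as deposited. At a mean of 5 FPKM or more 16 rose and 0 fell, since Lsm11 is below that level, and quantile normalization gave 16 rises and 2 falls. Subtracting the length and GC trend left 4 rises, 0 falls and a median of 0.18. Leaving out 1 library, with the trend kept or subtracted, gave 0 to 21 rises, 0 to 2 falls and medians of 0.15 to 0.44, while 0 to 2805 of all genes were called. A smaller pseudocount, other size factors, no variance trend, limma-voom and added copies gave 15 to 17 rises and 1 fall.

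Whether replicate numbers pair the libraries is not settled. Deviations of libraries with the same number correlated at -0.185, 0.268 and -0.368, and those of knockout replicate 3 and wild-type replicate 1 at 0.421. Deviations from a group mean are bound to each other, so these values cannot exclude pairing. With the number as a replicate block 11 rose and 0 fell, among 822 of 11287 genes called, and with the trend subtracted as well 0 rose and 0 fell, at a median of 0.18, with 0 of 11269 genes called.

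Differences that were small, or followed length and GC content, changed sign in places. Hnrnpab was at -0.032 in TPM, -0.15 after quantile normalization and -0.00068 with the trend subtracted, and ran from -0.067 to 0.20 with a library left out. Srsf2 was at -0.0031 after quantile normalization and -0.037 with the trend subtracted (-0.14 to 0.19 with a library left out). With the trend subtracted, Srsf6 was at -0.033 (-0.12 to 0.25), Srsf7 at -0.11 (-0.16 to 0.31), Edc3 at 0.0027 (-0.50 to 0.11) and Rnpc3 at -0.017 (-0.10 to 0.67), the same with the block. With a library left out, Lsm14b ran from -0.22 to 0.033, Edc4 from -0.57 to 0.040 and Zcrb1 from -0.023 to 0.55. Depth limits the low members most: Lsm11 had 229 to 299 fragments in knockout and 402 to 480 in wild type, and Lsm5 had 38 in wild-type replicate 3.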
